A study of Homo sapiens with 6 samples.

Results

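The genes described here encode cytochrome P450 enzymes and UDP-glucuronosyltransferases, written UGT below. They were chosen by name: every protein-coding gene in the count table whose symbol is CYP followed by a number, a letter and a number, or UGT followed by a digit, a letter and a number. The pattern matched 70 of the 32943 genes in the table, of which 69 were protein-coding. CYP51A1, which works in cholesterol synthesis, was left out by the rule, so 68 genes remained, 48 P450 genes and 20 UGT genes. For 7 further genes that belong to these families by name (CYP11B1, CYP11B2, CYP2A13, CYP4A11, CYP4B1, CYP4X1 and UGT1A4), values were not analysed here. Of the 68 genes, 33 had enough reads to be tested, 24 P450 genes and 9 UGT genes.

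PolyA RNA was sequenced in cells labelled AGS, a line from a human stomach adenocarcinoma, transfected with Lipofectamine 3000 and harvested after 48 h. Of the 2 groups, 3 libraries came from cells given a control plasmid and 3 from cells given pcDNA3.1-3xFlag-IGF2BP3, a plasmid that carries the coding sequence of the RNA-binding protein IGF2BP3. Both groups were transfected, and no untransfected cells were included. The question of the series was which genes respond to IGF2BP3.

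P450 enzymes are membrane proteins that hold a heme group and use electrons from a partner reductase to add an oxygen atom to a substrate. Some of them, chiefly of the CYP1, CYP2 and CYP3 families, act on drugs and other foreign compounds and are made mostly in liver and gut. Others have fixed substrates in the body: they turn cholesterol into bile acids and steroid hormones, clear retinoic acid, activate and inactivate vitamin D, or oxidize fatty acids. UGT enzymes join glucuronic acid to drugs, bilirubin, bile acids and steroids, often to a group that a P450 enzyme has added, so that the product can leave in bile or urine.

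The bases that encode the loop around the heme-binding cysteine show what the P450 genes share. In the GENCODE release 29 transcripts, the loop pattern was found in 42 of the 46 P450 genes searched, including all 9 that passed the test described below. The cysteine codon, in capitals, was TGC in 24 of them and TGT in 18. The 9 genes are given 5′ to 3′ on the coding strand, 30 bases each, the 6 that fell with overexpression before the 3 that rose.
CYP24A1: tttggcgttggaaaaagaatgTGCattggt
CYP4F3: ttctcagcagggcccaggaacTGCatcggg
CYP4F12: ttctccgcagggcccaggaacTGCatcggg
CYP3A5: tttggaactggacccagaaacTGCattggc
CYP2B6: ttctccttagggaagcggattTGTcttggt
CYP27A1: tttggctatggggtccgggccTGCctgggc
CYP2R1: ttttccctaggaagaagacatTGTcttgga
CYP11A1: tttggctggggtgtgcggcagTGTctggga
CYP1B1: ttttcagtgggcaaaaggcggTGCattggc
The loops of the neighbours CYP4F3 and CYP4F12 matched at 29 of 30 bases. CYP24A1 and CYP27A1, which both act in mitochondria, matched at 16, and CYP24A1 and CYP2R1, which act on the same vitamin, at 19. Genes that fell and genes that rose both carried either cysteine codon.

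Library totals ran from 33555366 to 37633587 counts, so 1 read stood for 0.0268 to 0.0299 CPM (counts scaled to a common library size), the scale used for levels below. Every pair of libraries differed beyond counting noise, but control library 1 and overexpression library 3 stood farther from the other libraries of their groups than those did from each other. Counts without these 2 libraries are therefore given beside the main ones. IGF2BP3 had 90.6, 102 and 100.2 CPM with the control plasmid and 511, 573 and 664 CPM with its own. It was 5.97-fold higher (log2 fold change 2.58 ± 0.08 SE, edgeR adjusted p = 1.28e-08), and the exact permutation p over libraries was 0.1, the smallest that 3 against 3 allows. Reads from the plasmid and from the cell's own gene cannot be told apart. Nothing in the labels says that the 3 libraries of a group were grown apart. A p-value here therefore speaks for the scatter among these libraries alone, and that scatter may be technical. In bulk RNA, fewer cells that make a transcript and less of it per cell cannot be told apart.

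With IGF2BP3 overexpression, 8 of the 33 tested genes fell and 3 rose at a Benjamini-Hochberg adjusted p under 0.05 in edgeR's quasi-likelihood test. The genes that fell were CYP24A1, CYP4F3, CYP4F12, CYP3A5, CYP2B6, CYP27A1, UGT2B4 and UGT1A8, and those that rose were CYP1B1, CYP11A1 and CYP2R1. As shares, 24.2% of the tested members fell, against 19.2% of all 17747 genes tested, 21.1% of protein-coding genes and 19.4% of protein-coding genes under a mean of 10 CPM. The share that rose was 9.09%, against 18.5% of all genes, 22.3% of protein-coding genes and 8.9% of those under 10 CPM. Most members were at low levels, 26 of 33 under a mean of 10 CPM, and beside genes of that level both shares were near the background.

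The larger changes were counted separately. With a fold of at least 1.5 required as well, 6 members fell (18.2%), against 7.14% of all genes and 13.3% of protein-coding genes under 10 CPM. In the other direction 2 members rose by that much (6.06%), against 2.29% of all genes. The median log2 fold change of the tested members was −0.23, against −0.01 over all genes tested and −0.10 over protein-coding genes under 10 CPM. All 3 overexpression libraries lay below all 3 control libraries for 11 members (33.3%, against 25.4% of all genes), and above them for 4 (12.1%, against 25.3%). Shares among genes under 10 CPM were not counted for overlap or for rises of at least 1.5-fold. These counts therefore do not set members against genes of their own level. Without control library 1 and overexpression library 3, 11 members fell, with UGT2B7, UGT1A1 and UGT2A3 added to the 8, and 4 rose, with CYP2S1 added to the 3.

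**Figure D1:**
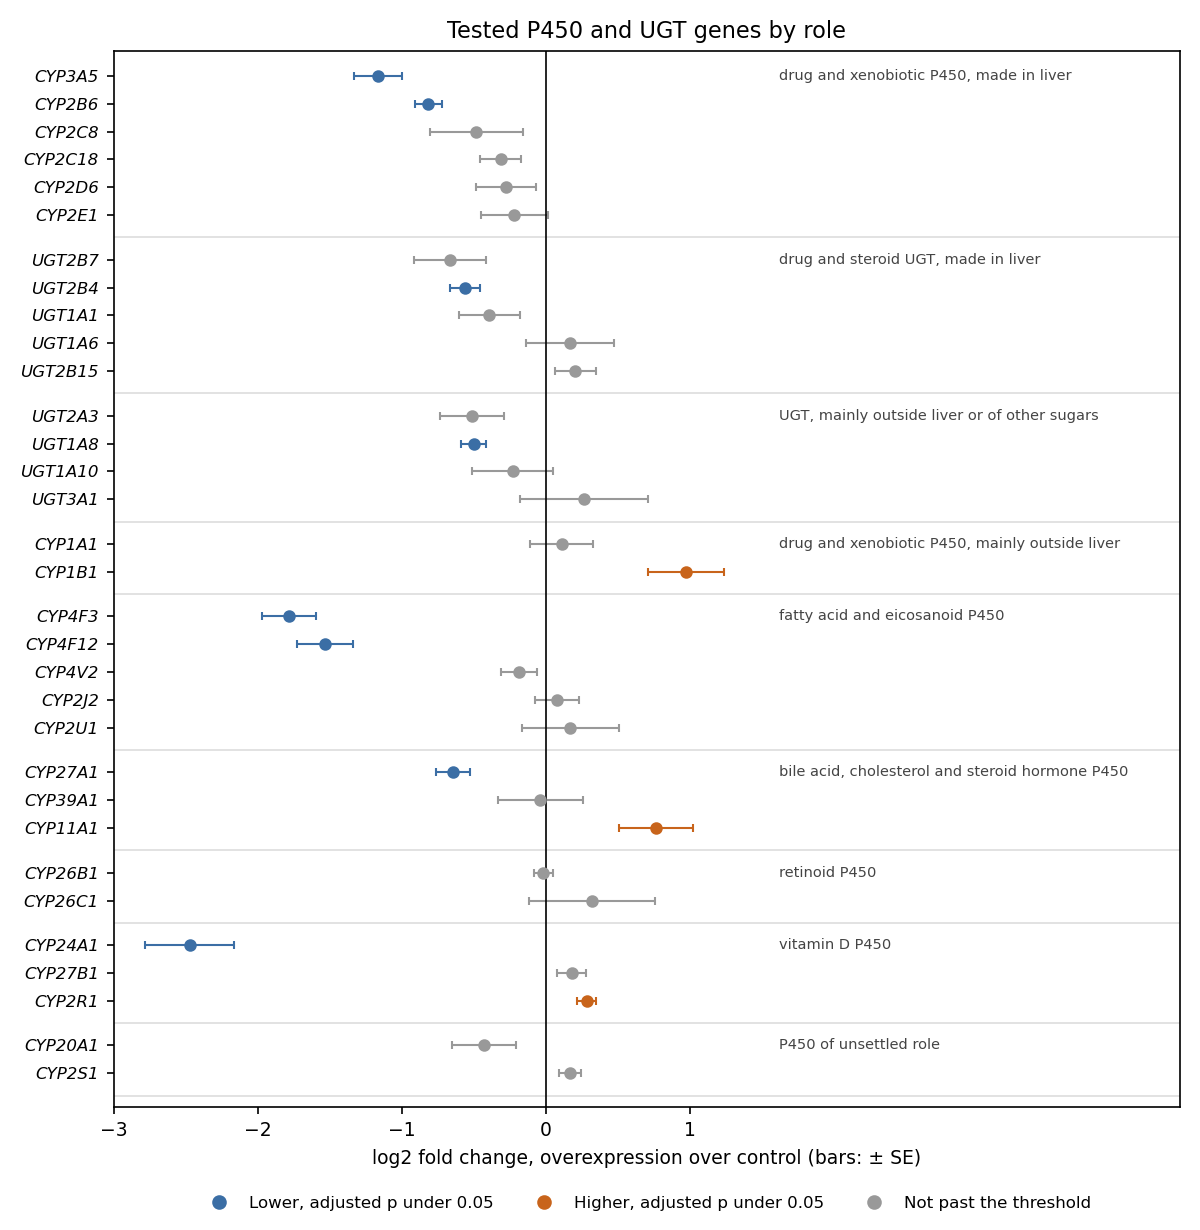
Log2 fold change, overexpression over control, of tested P450 and UGT genes, grouped by role, with the standard error as a bar (3 libraries a group). The 8 genes that fell are blue and the 3 that rose are orange. CYP24A1 lies farthest to the left at −2.47, and the liver drug P450 genes plotted lie left of 0.

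Among the P450 genes of drug metabolism in liver, CYP3A5 and CYP2B6 fell and the other 5 tested genes did not pass the test. CYP3A5 (ENSG00000106258.15, GRCh38 chr7:99648194-99680026, minus strand) encodes an enzyme that oxidizes a wide range of drugs, steroids and calcineurin inhibitors. Its control libraries were at 4.16, 4.87 and 5.68 CPM and its overexpression libraries at 2.52, 1.77 and 2.26. Every overexpression library was below every control library, and the level was 2.24-fold lower (log2 fold change −1.17 ± 0.17 SE, edgeR adjusted p = 2.19e-04). CYP2B6 (ENSG00000197408.10, chr19:40991250-41018398, plus strand) oxidizes bupropion and efavirenz and is induced by many drugs in liver. It was at 23.5, 19.2 and 23.7 CPM in controls and 12.7, 13.3 and 11.8 CPM with overexpression. The groups were again apart, with a 1.76-fold lower level (log2 fold change −0.82 ± 0.09 SE, edgeR adjusted p = 4.04e-05). Of all members of this group CYP2B6 had the highest level, 4.93 FPKM over the controls on the authors' per-length scale, against 0.42 FPKM for CYP3A5.

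CYP2C8, whose product oxidizes paclitaxel, was at 0.90, 0.81 and 1.11 CPM in controls and 0.94, 0.73 and 0.35 CPM with overexpression. Its groups overlapped, and its log2 fold change of −0.48 ± 0.32 (SE) did not pass the test (edgeR adjusted p = 0.27). CYP2C18 had a log2 fold change of −0.31 (edgeR adjusted p = 0.0998). It was at 5.57, 5.68 and 6.10 CPM in controls and 3.96, 5.75 and 4.27 CPM with overexpression, where library 2 lay among the controls. Without that library its log2 fold change was −0.49 (edgeR adjusted p = 0.016). CYP2D6, which activates codeine, had 1.72 ± 0.34 CPM (SD, n = 3) in controls and 1.42 ± 0.19 CPM (SD, n = 3) with overexpression. CYP2E1, which oxidizes ethanol and other small molecules, had 0.95 ± 0.11 and 0.82 ± 0.08 CPM. Neither passed the test, with edgeR adjusted p-values of 0.32 for CYP2D6 and 0.49 for CYP2E1.

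Among the UGT genes of liver, UGT2B4 fell and UGT2B7, UGT1A1, UGT1A6 and UGT2B15 did not pass the test. UGT2B4 (ENSG00000156096.14, chr4:69480165-69526014, minus strand) encodes an enzyme that conjugates bile acids. The control libraries lay close together at 11.7, 11.5 and 12.0 CPM, and the overexpression libraries lower at 9.29, 7.58 and 7.01 CPM. The fold was 1.47 (log2 fold change −0.56 ± 0.11 SE, edgeR adjusted p = 1.35e-03). UGT2B7, which conjugates morphine and many acids, was at 0.87, 1.17 and 1.39 CPM in controls and 0.70, 0.79 and 0.67 CPM with overexpression. Its groups did not overlap either, but its log2 fold change of −0.67 ± 0.25 (SE) missed the threshold (edgeR adjusted p = 0.053), and without control library 1 it was −0.83 (edgeR adjusted p = 0.020).

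UGT1A1, the only enzyme that conjugates bilirubin to a useful extent, was at 2.67, 2.51 and 3.11 CPM in controls and 1.47, 2.08 and 2.77 CPM with overexpression. Overexpression library 3 lay among the controls; the log2 fold change was −0.39 (edgeR adjusted p = 0.16), and −0.64 without that library (edgeR adjusted p = 0.036). UGT2B15, which conjugates androgens, went the other way: 2.42, 2.78 and 2.47 CPM in controls and 2.84, 2.82 and 3.17 CPM with overexpression. Its groups did not overlap, but the log2 fold change of 0.20 ± 0.14 (SE) did not pass the test (edgeR adjusted p = 0.28). UGT1A6, which prefers small flat phenols, had 0.43 ± 0.07 CPM in controls and 0.48 ± 0.07 CPM with overexpression (SD, n = 3).

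Of the UGT genes expressed mainly in gut or using other sugars, UGT1A8 fell. UGT1A8 (ENSG00000242366.4, chr2:233617645-233773310, plus strand) was at 17.04, 16.04 and 19.35 CPM in controls and 11.4, 12.5 and 13.2 CPM with overexpression. All 3 overexpression libraries were below the controls, at a 1.42-fold lower level (log2 fold change −0.50 ± 0.09 SE, edgeR adjusted p = 9.63e-04). The 8 UGT1A genes with a row are alternative first exons spliced to common later exons, and UGT1A8 shares 1478 exonic bases with each of the others or slightly more. In its GENCODE release 29 transcripts, 64.1% of 100-base windows also occurred in another gene, against 71.6% for UGT1A10 and 48.8% for UGT1A1. The table gives UGT1A8 3201 reads in all and UGT1A1 523, and the sources used here do not give how the authors' counting divided reads of the common exons. Values of single UGT1A genes are therefore uncertain. The sum over the UGT1A genes was 21.1, 20.0 and 24.5 CPM in controls and 14.1, 16.0 and 17.9 CPM with overexpression, with no overlap. UGT1A10 (log2 fold change −0.23), UGT2A3 (−0.51) and UGT3A1 (0.27) did not pass the test. UGT2A3 was at 1.52, 1.73 and 2.02 CPM in controls and 1.39, 0.87 and 1.42 CPM with overexpression, without overlap (edgeR adjusted p = 0.091).

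**Figure D2:**
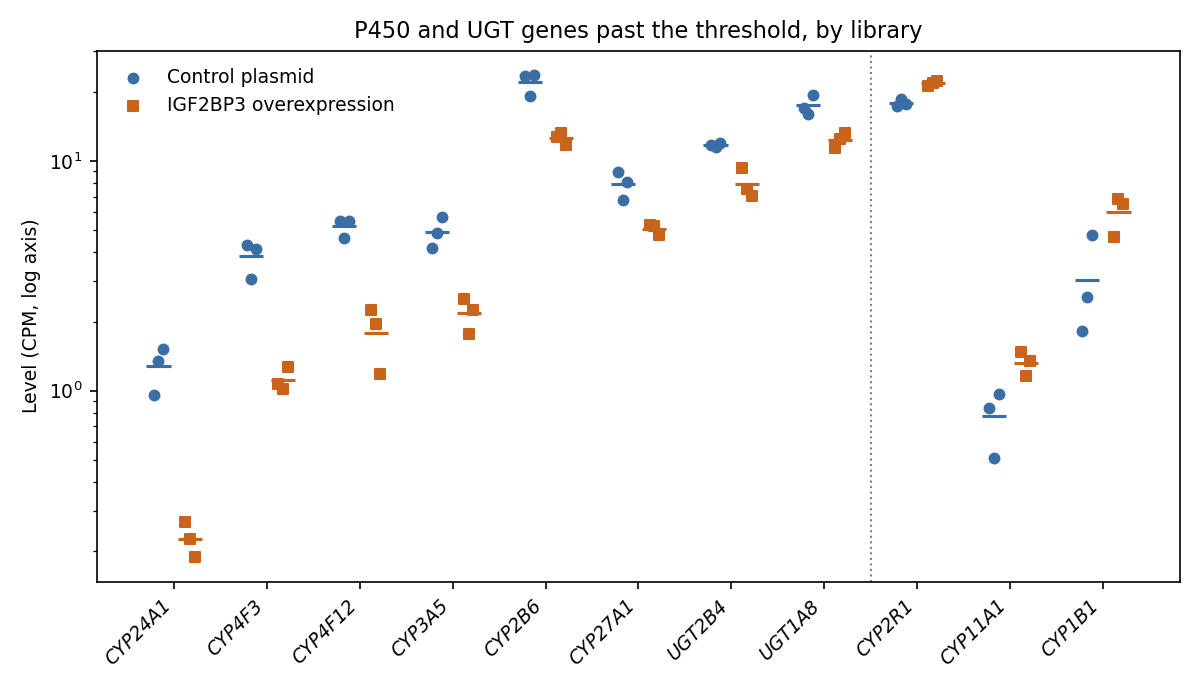
Level in CPM on a log axis of the 11 P450 and UGT genes that passed the test, in each control library (blue circles) and overexpression library (orange squares), with group means as lines. The dotted line separates the 8 genes that fell from the 3 that rose. The groups overlap only for CYP1B1, where control library 3 (4.74 CPM) lies just above overexpression library 1 (4.66 CPM).

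The 250 bases before a RefSeq transcription start are shown for 3 genes that fell and 1 that rose, because liver P450 genes are textbook targets of the factors HNF1, HNF4 and FOXA. The 3 that fell were picked after the search, because their windows held a match. Promoters were taken from RefSeq (GRCh38.p14), which held 51 of the 68 members, 24 of them tested. Both strands were searched for the HNF1 core GTTAAT, the HNF4 motif CAAAGTCCA, the FOXA motif TGTTTAC, the AHR element TNGCGTG and the E-box CACGTG in 300 bases around each start. Matches are in capitals, and none overlapped another in these sequences. Each sequence runs 5′ to 3′ on the gene's strand: CYP3A5 from chr7:99679997-99680246 (minus strand), CYP4F3 from chr19:15641062-15641311 (plus), CYP2B6 from chr19:40991032-40991281 (plus) and CYP2R1 from chr11:14891672-14891921 (minus).
CYP3A5: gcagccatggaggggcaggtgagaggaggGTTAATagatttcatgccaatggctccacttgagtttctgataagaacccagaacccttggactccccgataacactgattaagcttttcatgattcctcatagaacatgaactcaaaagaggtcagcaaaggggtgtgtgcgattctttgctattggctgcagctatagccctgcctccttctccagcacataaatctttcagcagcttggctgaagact
CYP4F3: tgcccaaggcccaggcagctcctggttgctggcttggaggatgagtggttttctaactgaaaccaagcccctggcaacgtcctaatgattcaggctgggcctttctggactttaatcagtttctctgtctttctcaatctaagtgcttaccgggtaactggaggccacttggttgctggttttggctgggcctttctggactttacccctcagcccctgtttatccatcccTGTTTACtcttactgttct
CYP2B6: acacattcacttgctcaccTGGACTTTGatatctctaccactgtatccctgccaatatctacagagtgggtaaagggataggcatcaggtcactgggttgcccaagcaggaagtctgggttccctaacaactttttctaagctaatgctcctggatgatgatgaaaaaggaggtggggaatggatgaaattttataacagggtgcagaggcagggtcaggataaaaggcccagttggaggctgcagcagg
CYP2R1: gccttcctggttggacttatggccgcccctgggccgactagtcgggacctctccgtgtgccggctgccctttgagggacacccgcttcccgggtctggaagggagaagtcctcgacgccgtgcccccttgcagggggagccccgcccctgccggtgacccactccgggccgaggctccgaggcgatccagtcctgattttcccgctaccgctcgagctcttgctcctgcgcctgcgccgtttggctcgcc
The HNF1 core began 221 bases before the start of CYP3A5, the FOXA motif 19 bases before that of CYP4F3 and the HNF4 motif, on the opposite strand, 231 bases before that of CYP2B6. None of these letter strings was in the windows of CYP27A1 and UGT1A8, which also fell, or of CYP2R1 and CYP11A1, which rose. RefSeq and GENCODE place some starts differently: the windows of CYP4F3, CYP27A1 and CYP2R1 lay inside the GENCODE limits of these genes. Of the 24 tested members with a promoter, 3 held the HNF1 core, 2 the HNF4 motif, 3 the FOXA motif, 2 the AHR element and 1 the E-box. Of all 35116 promoters, the shares were 6.88%, 0.384%, 3.42%, 5.51% and 7.26%. Among the 5 members that fell and had a promoter, the HNF1, HNF4 and FOXA strings each occurred in 1. A match of letters is a description of the window and does not show that a factor binds there.

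CYP4F genes had the next largest falls after CYP24A1. CYP4F enzymes hydroxylate the far end of fatty acids and of leukotriene B4, and CYP4F3 is known as the leukotriene B4 hydroxylase of neutrophils, with a second splice form in liver. CYP4F3 (ENSG00000186529.16, chr19:15640897-15662825, plus strand) was at 4.30, 3.08 and 4.16 CPM in controls and 1.07, 1.01 and 1.26 CPM with overexpression. All overexpression libraries lay far below the controls, 3.44-fold on average (log2 fold change −1.78 ± 0.19 SE, edgeR adjusted p = 2.17e-05). The next gene on the chromosome, CYP4F12 (ENSG00000186204.15, chr19:15672757-15697174, plus strand), was at 5.45, 4.63 and 5.49 CPM in controls and 2.25, 1.94 and 1.18 CPM with overexpression. It was 2.90-fold lower (log2 fold change −1.54 ± 0.19 SE, edgeR adjusted p = 8.68e-05), lowest in overexpression library 3. The 2 genes share no 100-base window, since none of those of CYP4F12 occurred in another gene. Of the windows of CYP4F3, 1.6% did, most of them in CYP4F2. Summed over the 6 CYP4F genes of this cluster, levels were 10.0, 7.95 and 9.84 CPM in controls and 3.37, 2.99 and 2.58 CPM with overexpression. Of the 5 leukocyte markers, PTPRC, the pan-leukocyte surface gene, had 34 reads over all 6 libraries and CD3E 2. The myeloid markers were expressed and fell: CD14, a receptor for bacterial lipopolysaccharide, from 69.0 ± 3.3 to 26.5 ± 5.3 CPM and LYZ, lysozyme, from 11.2 ± 0.8 to 7.47 ± 0.81 CPM (SD, n = 3). Their part in the CYP4F3 result was not tested.

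The other tested fatty acid P450 genes did not pass the test. CYP4V2, whose loss causes a crystalline retinal dystrophy, had 5.39 ± 0.40 CPM in controls and 4.73 ± 0.63 CPM with overexpression (SD, n = 3). CYP2J2, which makes epoxides of arachidonic acid, had 4.19 ± 0.54 and 4.42 ± 0.79 CPM. CYP2U1, which hydroxylates long-chain fatty acids, had 0.42 ± 0.10 and 0.47 ± 0.13 CPM. The group thus held 2 of 5 tested genes that fell, against 19.2% of all genes, and 3 whose groups overlapped. With 5 genes this count is a description only.

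The 3 vitamin D genes moved in different directions. CYP24A1, the mitochondrial enzyme that begins the breakdown of active vitamin D, fell, and CYP2R1, the main enzyme that makes the circulating form of the vitamin, rose. CYP24A1 (ENSG00000019186.10, chr20:54153449-54173973, minus strand) was at 0.956, 1.34 and 1.53 CPM in controls and 0.268, 0.225 and 0.188 CPM with overexpression. The groups did not overlap, and the level was 5.55-fold lower (log2 fold change −2.47 ± 0.31 SE, edgeR adjusted p = 8.29e-05), from 159 reads in all. CYP2R1 (ENSG00000186104.11, chr11:14877440-14892252, minus strand) was at 17.4, 18.7 and 17.6 CPM in controls and 21.2, 21.9 and 22.3 CPM with overexpression. The rise was small, 1.22-fold, but larger than the spread between libraries (log2 fold change 0.28 ± 0.07 SE, edgeR adjusted p = 5.11e-03). CYP27B1, which makes the active hormone, was at 7.17, 7.17 and 6.40 CPM in controls and 8.46, 7.69 and 7.33 CPM with overexpression; the groups did not overlap but the change missed the threshold (log2 fold change 0.18 ± 0.10 SE, edgeR adjusted p = 0.18). VDR, the vitamin D receptor, which drives CYP24A1, had 48 reads in all and was not tested.

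Of the genes that handle cholesterol, bile acids and steroid hormones, CYP27A1 fell, CYP11A1 rose and CYP39A1 did not pass the test. CYP27A1 (ENSG00000135929.9, chr2:218781749-218815293, plus strand) oxidizes the side chain of cholesterol in mitochondria on the way to bile acids. It was at 8.94, 6.78 and 8.07 CPM in controls and 5.27, 5.21 and 4.75 CPM with overexpression, 1.56-fold lower without overlap (log2 fold change −0.64 ± 0.12 SE, edgeR adjusted p = 1.20e-03). CYP11A1 (ENSG00000140459.18, chr15:74337759-74367740, minus strand) cuts the side chain of cholesterol to make pregnenolone, the start of all steroid hormones. It was at 0.843, 0.508 and 0.970 CPM in controls and 1.47, 1.16 and 1.34 CPM with overexpression. The groups did not overlap and the level was 1.70-fold higher (log2 fold change 0.77 ± 0.26 SE, edgeR adjusted p = 0.034).

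The call on CYP11A1 was not held by every tool or every library. DESeq2 gave an adjusted p of 0.074, and edgeR's adjusted p was 0.12 without control library 2, 0.10 without overexpression library 1 and 0.077 without overexpression library 3. An antisense gene, AC090826.1 (14 reads in all), covers 21.2% of its exonic bases, and the sources used here do not give the strand setting of the counting. Of the markers of steroid-forming cells, STAR had 32 reads in all, NR5A1 40 and HSD3B2 8. HSD3B1, which turns pregnenolone into progesterone, had 589 reads and fell, from 3.36 ± 0.06 to 2.15 ± 0.51 CPM (SD, n = 3; log2 fold change −0.65, edgeR adjusted p = 0.013). CYP39A1, which acts on oxysterols, had 0.58 ± 0.17 CPM in controls and 0.56 ± 0.06 CPM with overexpression (SD, n = 3). The gatekeeper of bile acid synthesis, CYP7A1, had 1 read in 6 libraries.

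The retinoid genes showed no called change. CYP26B1, which clears retinoic acid, was among the most strongly expressed members at 6.31 FPKM in controls. It was at 37.0, 37.2 and 35.8 CPM in controls and 32.84, 37.96 and 37.76 CPM with overexpression, with overlapping groups and a log2 fold change of −0.02 ± 0.07 (SE, edgeR adjusted p = 0.85). CYP26C1 was at 0.59, 0.12 and 0.58 CPM in controls and 0.70, 0.51 and 0.43 CPM with overexpression, also overlapping. In edgeR, 0 of these 2 genes had an unadjusted p under 0.05 in either direction, and DESeq2 and limma-voom called neither.

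The liver drug-metabolizing members were then set against the sterol, retinoid and vitamin D members. Of 24 liver drug members, 12 were tested: 3 fell, 0 rose and 10 had a log2 fold change below 0, with a median of −0.41. Of all genes tested 18.5% rose and 51.2% were below 0, and of protein-coding genes under 10 CPM 8.9% rose and 58.7% were below 0. In edgeR 6 of the 12 had an unadjusted p under 0.05 in the lower direction and 0 in the higher, against 23.7% and 22.9% of all genes and 25.6% and 12.7% of protein-coding genes under 10 CPM. DESeq2 and limma-voom also called 0 higher. Of 17 sterol, retinoid and vitamin D members, 8 were tested: 2 fell and 2 rose, 4 were below 0, and the median was 0.08. As shares, 25% of the tested members fell in both sets, against 19.2% of all genes. Without control library 1 and overexpression library 3, 5 liver drug members fell and 0 rose, and the other set kept 2 and 2. No test of the difference between the sets was made.

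Summed over its members, the liver drug set was at 57.5, 54.6 and 61.1 CPM in controls and 38.8, 39.6 and 37.1 CPM with overexpression. All 3 overexpression libraries were below the controls, and CYP2B6 gave the largest part of the sum. The sterol, retinoid and vitamin D set was at 74.2, 72.8 and 72.3 CPM in controls and 71.1, 75.8 and 75.2 CPM with overexpression, with the controls inside the range of the other group. CYP26B1 and CYP2R1 made up most of that sum. Within it the vitamin D genes were higher with overexpression, at 29.9, 29.8 and 29.8 CPM against 25.5, 27.2 and 25.6 CPM in controls. Of the 3 vitamin D genes, CYP2R1 and CYP27B1 held most of those reads.

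**Figure D3:**
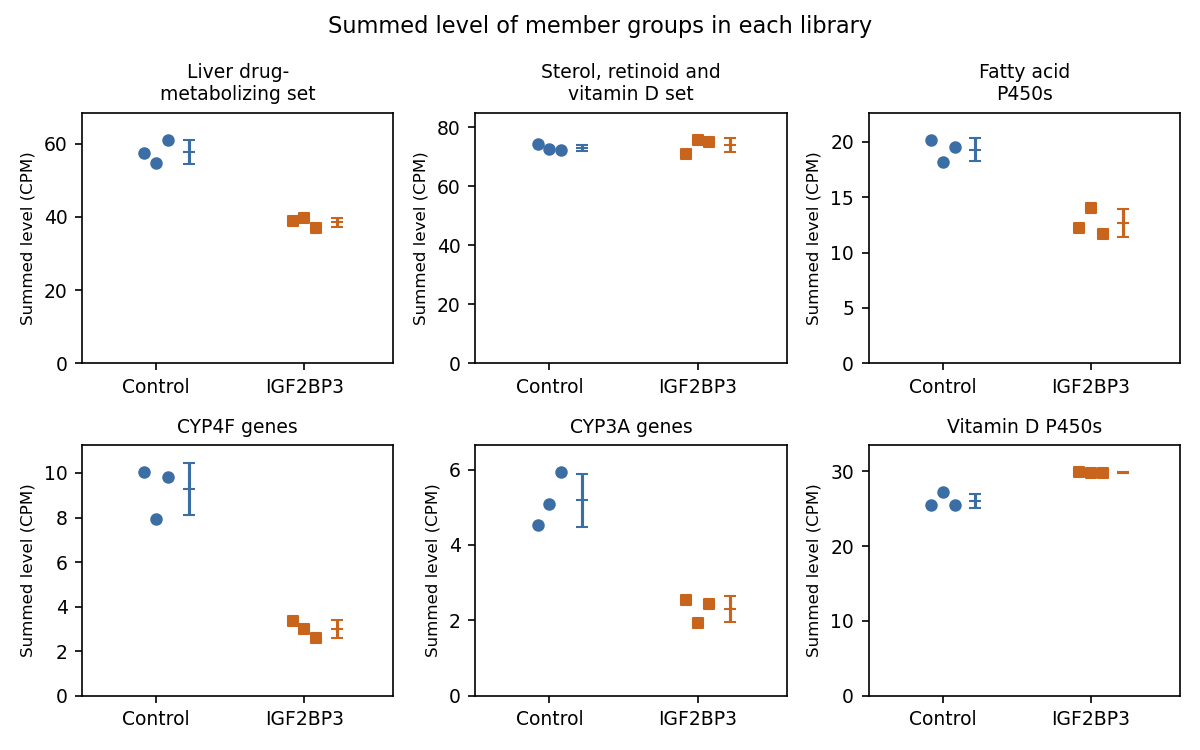
Summed CPM of 6 groups of members in each control library (blue circles) and IGF2BP3 overexpression library (orange squares), with the group mean and SD as bars beside the points (3 libraries a group). The groups do not overlap for the liver drug set, the fatty acid, CYP4F and CYP3A genes (lower) or the vitamin D genes (higher), and overlap for the sterol, retinoid and vitamin D set.

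Markers of liver cells were counted beside the liver drug set. All 11 tested hepatocyte markers of a list of 12 fell, against 19.2% of all genes tested. Their summed level went from 4232 to 4472 CPM in controls to 2524 to 2826 CPM with overexpression. ALB, the main plasma protein of hepatocytes, went from 1512 ± 47 CPM to 770 ± 50 CPM (SD, n = 3). Stomach markers had few reads: CLDN18 had 12 in all libraries together, TFF2 9, MUC5AC 8 and TFF1, which did not pass the test, 114 (0.64 ± 0.26 CPM in controls, 0.43 ± 0.04 CPM with overexpression, SD, n = 3), while the general epithelial keratins KRT8 and KRT18 were at 5097 and 3802 CPM in controls. Of the 6 tested gastric and epithelial markers, 2 fell, again against 19.2% of all genes. These stomach genes do not bear out the label AGS, and the cells are called by their label only.

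Markers of other cell types were lower too. Of those tested, 4 of 5 enterocyte, 4 of 5 fibroblast, 2 of 2 leukocyte and 1 of 1 steroid-forming cell markers fell, and none rose. Over all genes tested, 19.2% fell and 18.5% rose. The summed fibroblast markers went from 210 to 220 CPM in controls to 121 to 135 CPM. Most of that sum was LUM, at 164.4 ± 7.5 CPM in controls (SD, n = 3), while DCN had 30 reads in all. FABP2 and SI of the enterocyte list had no row. The leukocyte list, carried by CD14, went from 76.4 to 83.1 CPM to 27.88 to 37.96 CPM. These lists do not show that such cells were present. The part of these shifts in the falls of the P450 and UGT genes was not tested.

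The CYP1 genes were set beside their receptor. AHR, the receptor for dioxins and polycyclic hydrocarbons, which switches on CYP1A1, CYP1A2 and CYP1B1, rose from 150, 174 and 167 CPM to 225, 221.5 and 254.5 CPM (log2 fold change 0.51 ± 0.06 SE, edgeR adjusted p = 8.15e-05). CYP1B1 (ENSG00000138061.12, chr2:38066973-38109902, minus strand), which activates hydrocarbons and hydroxylates estradiol, was at 1.83, 2.57 and 4.74 CPM in controls and 4.66, 6.82 and 6.53 CPM with overexpression. The groups touched, since control library 3 lay just above overexpression library 1. The mean level was 1.96-fold higher (log2 fold change 0.97 ± 0.26 SE, edgeR adjusted p = 0.012). DESeq2 gave an adjusted p of 0.065 and edgeR 0.052 without overexpression library 2. Leaving out control library 3 raised the log2 fold change to 1.45, and leaving out control library 1 and overexpression library 3 lowered it to 0.63. CYP1B1-AS1, on the opposite strand, covers 11.3% of its exonic bases and had 19 reads in all.

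CYP1A1 (ENSG00000140465.14, chr15:74719542-74725610, minus strand), the classic target of AHR, had the highest level of all members, 19.2 FPKM in controls. Its control libraries spread widely, at 49.2, 68.1 and 113 CPM, and its overexpression libraries at 69.8, 91.2 and 87.7 CPM lay inside that range. The log2 fold change was 0.11 ± 0.22 (SE, edgeR adjusted p = 0.72). It was −0.13 without control library 1 (edgeR adjusted p = 0.53) and 0.50 without control library 3 (edgeR adjusted p = 0.015), so a single control library set its sign and its call. CYP1A1 and CYP1B1 had the same order of control libraries, lowest in 1 and highest in 3. AHR was also lowest in control library 1 but highest in control library 2. CYP1A2, the liver member of the family, had 12 reads in all.

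**Figure D4:**
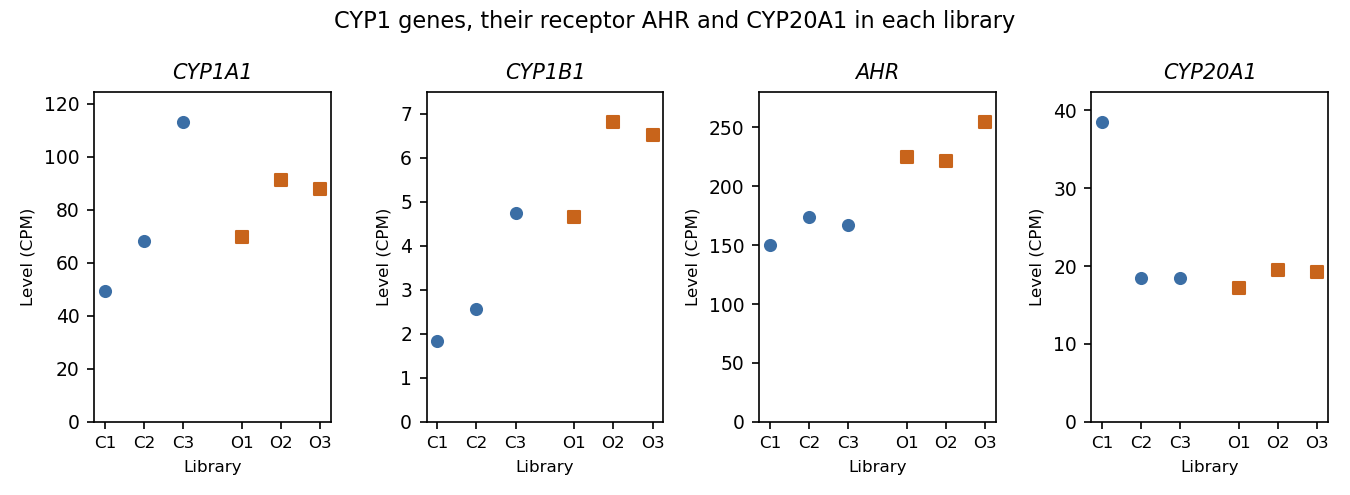
Level in CPM of CYP1A1, CYP1B1, AHR and CYP20A1 in control libraries C1 to C3 (blue circles) and overexpression libraries O1 to O3 (orange squares). AHR separates the groups, CYP1A1 and CYP1B1 are highest among the controls in library C3, and CYP20A1 stands out in library C1 alone.

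Of the 2 tested P450 genes without a settled role, neither was called. CYP20A1 (ENSG00000119004.16, chr2:203238940-203305611, plus strand) was at 38.5 CPM in control library 1 but at 18.5 CPM in both other controls and at 17.2, 19.6 and 19.3 CPM with overexpression. The single high library set its log2 fold change of −0.43 (edgeR adjusted p = 0.15), which was 0.01 without it. Without control library 2 it was −0.61 (edgeR adjusted p = 0.046). With no filter on low counts it was −0.41 (edgeR adjusted p = 6.34e-06), although the same single library was high. CYP2S1, an enzyme of epithelia outside the liver, was the second most strongly expressed member at 6.65 FPKM in controls. It was at 23.67, 20.97 and 20.38 CPM in controls and 26.04, 23.97 and 23.12 CPM with overexpression, with overlapping groups (log2 fold change 0.17 ± 0.08 SE, edgeR adjusted p = 0.10). Without control library 1, which was its highest control, the log2 fold change was 0.24 (edgeR adjusted p = 0.022).

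The 35 members with too few reads for the test held 1 to 54 reads over the 6 libraries, with a median of 10. With overexpression 19 had fewer reads, 9 more and 7 as many. No such count was made over all genes with too few reads, so this split is a description only. In a fit with no filter, 1 of them passed the threshold: CYP27C1, which desaturates retinoids in skin, with 9, 4 and 7 reads in controls and 0, 1 and 3 with overexpression (log2 fold change −2.25, edgeR adjusted p = 0.039). CYP3A4, the main drug-oxidizing P450 of adult liver, had 8, 7 and 8 reads in controls and 1, 1 and 5 with overexpression (edgeR adjusted p = 0.073 in that fit). CYP4F11 had 5, 4 and 2 reads against 0, 1 and 0 (edgeR adjusted p = 0.078). The p-values of the fit with no filter need care, since scatter between libraries weighed less in it. CYP20A1, high in control library 1 alone, had an edgeR adjusted p of 6.34e-06 there, against 0.15 with the filter. Among the untested members CYP2C19 had the most reads, 9, 6 and 7 in controls and 10, 7 and 15 with overexpression. At this depth a change in genes such as CYP7A1, CYP8B1 or CYP17A1, with 1 to 3 reads in all, was not detectable.

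Many members sit in gene clusters, and the calls are given by cluster. No difference between neighbours was tested. In the CYP4F cluster (chr19:15508493-15934867, 6 members) both tested genes fell. The CYP3A cluster (chr7:99648194-99866102, 4 members) held 1 tested gene, CYP3A5, which fell. Within the UGT2 cluster (chr4:68537184-69653249, 10 members) UGT2B4 fell (log2 fold change −0.56), while UGT2B7 (−0.67), UGT2A3 (−0.51) and UGT2B15 did not pass the test. On another stretch of chromosome 19 (chr19:40843538-41207539) CYP2B6 fell while CYP2S1 was not called. In the UGT1A cluster (chr2:233617645-233773310, 8 members) UGT1A8 fell and 3 tested genes were not called. On chromosome 15 (chr15:74337759-74756202, 3 members) CYP11A1 rose and CYP1A1 was not called. The 3 tested genes of the CYP2C cluster (chr10:94683621-95069497, 4 members) were not called. The remaining clusters held no gene that fell or rose. Over all genes tested, 19.2% fell and 18.5% rose.

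The nuclear and AHR-type receptors that control P450 and UGT genes came next. Their list had 11 tested genes, of which 4 fell and 1, AHR, rose, against 19.2% and 18.5% of all genes. Those that fell were NR0B2, NR1H4, PPARA and RXRA. NR0B2 (SHP, the bile acid-induced repressor of CYP7A1) went from 3.47 ± 0.51 to 1.28 ± 0.46 CPM (SD, n = 3). NR1H4, the bile acid receptor FXR, went from 2.03 ± 0.32 to 0.80 ± 0.26 CPM. PPARA, the fatty acid receptor that drives CYP4A genes, went from 7.94 ± 0.33 to 4.32 ± 0.61 CPM. RXRA, the partner of FXR and PPARA, went from 51.0 ± 1.1 to 42.1 ± 3.1 CPM. NR1I2, the receptor PXR that induces CYP3A and CYP2B6, had 8 reads in all. Of the 7 tested redox partners, which pass electrons to P450 enzymes, 2 fell, against 19.2% of all genes. They were CYB5R3 (log2 fold change −0.43) and FDXR (−0.37). POR, the reductase of all microsomal P450 enzymes, did not pass the test (134 ± 2 CPM in controls, 126 ± 9 CPM with overexpression, SD, n = 3).

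Of 8 tested genes of heme synthesis, 3 fell: ALAD (log2 fold change −0.44), PPOX (−0.42) and UROD (−0.17), against 19.2% of all genes. ALAS1, the rate-limiting enzyme, had a log2 fold change of 0.03. All 4 genes of UDP-glucuronic acid supply and glucuronide cleavage passed the test. Of these, 3 fell and 1 rose, against 19.2% and 18.5% of all genes, and with 4 genes this count is a description only. UGDH, which oxidizes UDP-glucose to the sugar donor of the UGT enzymes, rose from 60.01 ± 5.61 to 78.49 ± 6.47 CPM, while UGP2, which makes UDP-glucose, fell from 268 ± 5 to 217 ± 7 CPM (SD, n = 3). The glucuronidase GUSB and the transporter SLC35D1 fell too, with log2 fold changes of −0.39 and −0.23.

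Other enzymes of foreign compound handling were counted in the same way. Of 17 tested conjugating enzymes, 7 fell and 1 rose, with a median log2 fold change of −0.35. The 4 of smallest p were the sulfotransferase SULT2A1, which acts on bile acids and steroids (log2 fold change −1.21), the glutathione transferases GSTM4 (−0.83) and GSTM3 (−0.47) and the sulfotransferase SULT1A1 (−1.22). NNMT, a methyltransferase of nicotinamide, rose (0.18). Of 10 tested oxidizing and hydrolysing enzymes outside the P450 family, 6 fell and 2 rose, with a median of −0.69. MAOA (−0.60) and MAOB (−0.82), the monoamine oxidases, the epoxide hydrolase EPHX2 (−0.77) and the paraoxonase PON1 (−1.74) fell, and AOX1, aldehyde oxidase, rose (1.17). Of 9 tested genes of retinoid handling, 5 fell, among them the plasma carrier RBP4 (−0.57) and the retinal dehydrogenase ALDH1A1 (−0.24). Against 19.2% of all genes tested, the shares that fell in these small lists are descriptions only. Of 4 P450 and UGT genes outside the naming rule, CYP51A1 fell (log2 fold change −0.18), and TBXAS1, PTGIS and UGT8 did not pass the test.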

How the data were processed

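Per the labels' protocols, libraries of polyadenylated RNA kept the strand and were sequenced as read pairs. The submitters' processing notes name HISAT2, DESeq2 and GRCh38; which program counted reads per gene, with which annotation and strand setting, is not given in the sources here. The authors deposited whole-number read counts for 32943 genes and FPKM for 32477 genes, rounded to 2 decimals. The FPKM served only to compare levels between genes and as an alternative.

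Libraries were grouped by their titles. The test on counts was edgeR's (4.0.16, R 4.3.3): filterByExpr defaults (minimum count 10, minimum total 15), TMM scaling, the quasi-likelihood F test without a block, and Benjamini-Hochberg adjustment over the 17747 genes tested, at 0.05. Levels are counts as CPM on TMM-adjusted library sizes, and SD is over 3 libraries. Standard errors are the log2 fold change over the root of F. The procedure was tested on simulated data. Positions and exon overlaps are from GENCODE release 29 (GRCh38), matched by Ensembl ID for 66 members and by symbol for 2. Members within 500 kb formed a cluster.

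The members, roles and lists were chosen with earlier results of these data known. Named were IGF2BP3, every tested member, and up to 4 genes of smallest p of each list. Named outside that rule, after their values were seen, were POR, RXRA, KRT18, ALAS1, NNMT, AOX1 and untested genes of the lists and markers. A few genes within these rules have no values printed. The labels do not say that a number marks a shared culture or day, so numbers were not taken as pairs. The alternatives were other scalings (RLE, upper quartile, library totals, TMM without IGF2BP3 and mitochondrial genes), other filters, DESeq2 1.42.0, limma-voom and limma 3.58.1 on log2 FPKM with pseudocounts of 1 and 0.1, stricter thresholds, other class assignments, a replicate block and libraries left out.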

Additional observations from a re-analysis of the deposited data

How the results depend on the processing

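The 8 members that fell and CYP2R1 stayed past an adjusted p of 0.05 in the same direction under each scaling, filter, tool and left-out library that gave them a value. The count of members that fell was 6 to 11 over all settings, thresholds included, against 8 as reported. The count that rose was 1 to 4 over all settings, against 3 as reported. It was 1 with DESeq2 and 1 at an adjusted p under 0.01. With a fold of at least 1.5, without control library 2, or without any single overexpression library, it was 2. On FPKM, without control library 1, without control library 3, or without control library 1 and overexpression library 3 together, it was 4. Liver drug members that fell numbered 2 to 5 over all settings, against 3 as reported. The lowest count was with a fold of at least 1.5, the highest without control library 1 and overexpression library 3 together. Liver drug members that rose numbered 0, and 1 when members made mainly outside liver were added, which brought in CYP1B1. Sterol, retinoid and vitamin D members that fell numbered 2, and 3 with no filter on low counts, which added CYP27C1. They numbered 1 when a CPM of at least 1 in 3 libraries was required, which left CYP24A1 untested. Those that rose numbered 2, and 3 with CYP1B1 added to the set. They numbered 1 with DESeq2, at an adjusted p under 0.01, and with a fold of at least 1.5. With each library left out in turn they numbered 1 to 2, losing CYP11A1 without control library 2, overexpression library 1 or overexpression library 3.

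Log2 fold changes of 9 members that were not called changed sign. With each library left out in turn, CYP1A1 ran from −0.13 (without control library 1) to 0.50 (without control library 3) and CYP20A1 from −0.61 to 0.013 (without control library 1). CYP26B1 ran from −0.052 to 0.052 (without overexpression library 1), CYP26C1 from −0.10 (without control library 2) to 0.60 and CYP2J2 from −0.064 (without overexpression library 2) to 0.20. CYP2U1 ran from −0.025 (without overexpression library 3) to 0.39, CYP39A1 from −0.22 to 0.20 (without control library 3), UGT1A10 from −0.42 to 0.037 (without control library 3) and UGT3A1 from −0.17 (without overexpression library 3) to 0.65. Without overexpression library 1, CYP39A1 was 0.036. Without control library 1 and overexpression library 3 together, CYP1A1 was −0.18 and UGT3A1 −0.14. CYP26B1 was 0.0055 with no filter and, on FPKM with pseudocounts of 1 and 0.1, 0.027 and 0.030, where CYP39A1 was 0.0048 and 0.032. The causes of these changes were not tested.

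With the replicate number as a block, 8 members fell and 3 rose, as without it, and IGF2BP3 had a log2 fold change of 2.57. The block changed no member's call. Deviations of same-numbered libraries correlated at 0.089, −0.043 and 0.082, and those of unlike numbers at −0.139 to 0.084. Such weak correlations cannot settle whether a number marks a shared culture or day, and the labels do not say. Depth limits the 35 members with at most 54 reads in all, and 26 of the 33 tested members were under a mean of 10 CPM.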
